A study of Sus scrofa with 8 samples.

Results

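The subunits, inhibitors and adaptors of nuclear factor kappa B (NF-kappa B) were examined in islets of neonatal pigs. A list of 10 genes was searched in the array's annotation, and a probe set was taken when its only gene symbol was one of them. Of the 10 genes, 4 had a probe set, out of 6765 genes with a symbol on the array: NFKBIA and NFKB1 with 1 probe set each, and TRAF5 and TRAF6 with 2 each. No probe set carried the symbol of NFKB2, REL, RELA, RELB, TNFAIP3 or BIRC3, so these 6 were not analysed here. The islets came from male Duroc/Large white cross pigs of 7 days (4 pigs) and of 3 days (4 pigs) of age. They were isolated by collagenase digestion and cultured for 7 days before RNA extraction, in both groups alike, in medium with glucose, isobutylmethylxanthine and nicotinamide. Each pig gave 1 Affymetrix porcine GeneChip, whose probe sets, each a group of short oligonucleotides matching a transcript, yield 1 fluorescence intensity each, and 1 gene may have several.

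NF-kappa B is a family of dimeric transcription factors that drives inflammatory and survival genes. In resting cells inhibitor proteins hold the dimers in the cytoplasm. Receptors of the tumour necrosis factor, interleukin-1 and Toll-like families signal through TRAF adaptors to a kinase complex, which marks the inhibitor for degradation and frees the dimer. In pancreatic islets this pathway is best known for the response of beta cells to inflammatory cytokines. NFKBIA encodes the inhibitor I kappa B alpha and is itself a target of NF-kappa B, so that its transcript is renewed when the pathway is active. NFKB1 encodes p105, the precursor of the p50 subunit. TRAF6 is the adaptor of interleukin-1 and Toll-like receptors, and TRAF5 an adaptor of receptors of the tumour necrosis factor family.

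Arrays are named by the age in their deposited labels. Every probe set in the study's tables of changed genes differed between these labels in the direction opposite to the one the study gives, and it could not be settled here on which side the ages are exchanged. None of the member probe sets is in those tables. The arrays had medians between 171.4 and 178.4, and log2 intensities correlated across probe sets at 0.942 to 0.957 within a label and at 0.930 to 0.940 between labels. The hormones INS, GCG, SST and PPY were bright in all arrays and did not pass the test, with log2 differences between -0.19 and 0.19, while the probe set of the islet peptide IAPP stayed under the array's 20th percentile throughout.

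NFKBIA, the inhibitor gene, was lower in the 4 arrays that carry the 7-day-old label. Its intensity was 2618, 2493, 2179 and 2299 in arrays labelled 7-day-old (replicates 1 to 4), against 4672, 3938, 3287 and 3566 in those labelled 3-day-old. All 4 values of the 7-day-old label lay under all 4 of the 3-day-old label. The means were 2397 ± 196 in arrays labelled 7-day-old and 3866 ± 600 in those labelled 3-day-old (SD, n = 4 each). The log2 difference was -0.68, here and below 7-day-old minus 3-day-old label, with a standard error of 0.129 and a 95% interval of -0.98 to -0.38 (limma, adjusted p = 0.0199 over 21571 probe sets). An exact permutation test of the difference gave p = 0.0286, two-sided, the smallest p that 4 arrays against 4 allow. Within its array, the probe set Ssc.4759.1.S1_at stood between percentiles 93.2 and 94.6 in arrays labelled 7-day-old and between percentiles 96.0 and 97.4 in arrays labelled 3-day-old. The call did not hold without 7-day-old replicate 2 (adjusted p = 0.05155) or without 3-day-old replicate 2 (0.0567), with the difference at -0.70 and -0.67.

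NFKB1, the gene of the p50 precursor, was listed at low values in all 8 arrays. The probe set Ssc.24034.1.S1_at had 1.93, 3.38, 4.52 and 1.23 in arrays labelled 7-day-old, against 10.4, 18.2, 7.94 and 3.14 in arrays labelled 3-day-old. The ranges overlapped, because 3-day-old replicate 4 lay under 2 of the arrays labelled 7-day-old. Every one of these values was under the 20th percentile of its array, which lay between intensities of 26.4 and 31.4, so the probe set was left out of the test by the filter on dim probe sets. Without that filter the log2 difference was -1.75 and did not pass (limma, adjusted p = 0.126). Values this low do not give a usable level for NFKB1, and a difference was not measurable with this probe set.

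**Figure D1:**
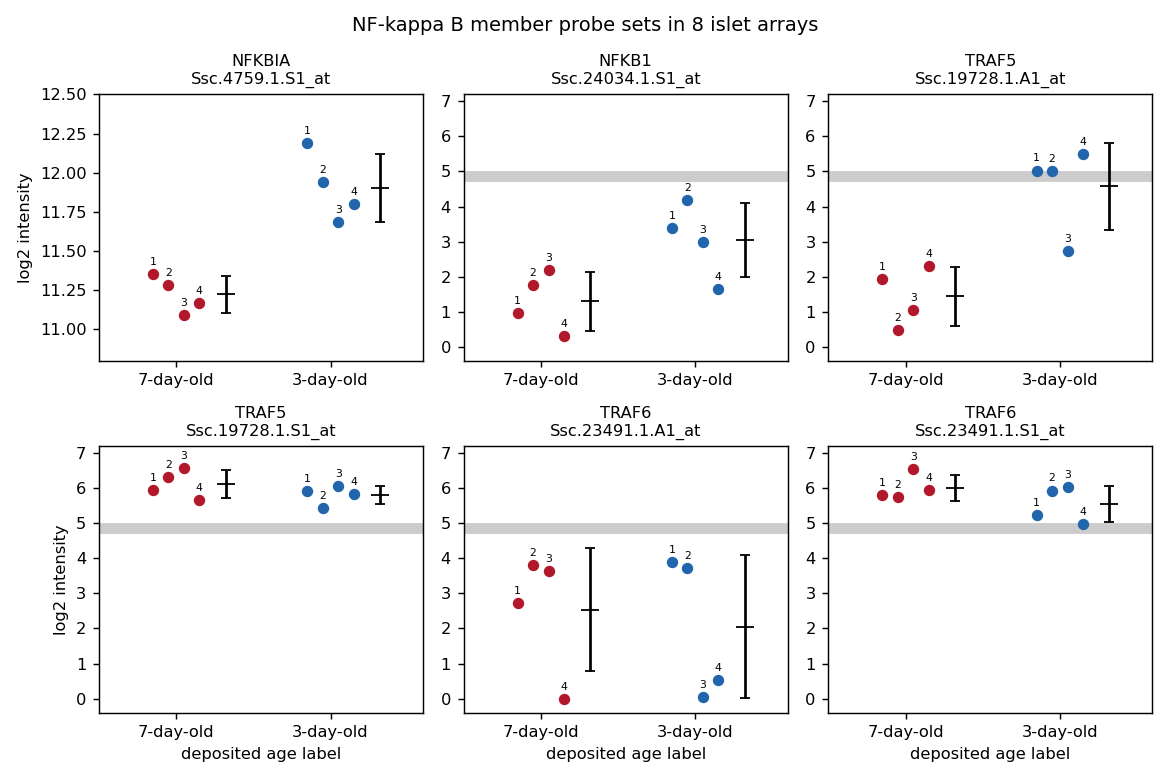
Log2 intensity (vertical axis, intensities under 1 set to 1) of the 6 member probe sets in each array, by deposited age label, numbered by replicate, a bar giving the mean and SD of each label. The grey band spans the 20th percentiles of the 8 arrays, and the NFKBIA panel has its own scale. NFKBIA and the A1 probe set of TRAF5 separate the labels, and NFKB1 and the A1 probe set of TRAF6 lie under the band in every array.

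TRAF5 was read by 2 probe sets, which gave different answers. The dim one, Ssc.19728.1.A1_at, had 3.85, 1.38, 2.06 and 4.96 in arrays labelled 7-day-old, against 32.6, 32.4, 6.65 and 45.6 in arrays labelled 3-day-old. The labels did not overlap, although 3-day-old replicate 3 stood far nearer to the arrays labelled 7-day-old than to the rest of its own label. The other, Ssc.19728.1.S1_at, had 62.0, 79.6, 95.0 and 50.7 in arrays labelled 7-day-old, against 60.3, 43.7, 66.4 and 57.3 in arrays labelled 3-day-old. Here the labels overlapped and no array stood apart.

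For the A1 probe set of TRAF5 the log2 difference was listed at -3.13 (limma, adjusted p = 0.0285). Its size has no firm base, because all 4 arrays labelled 7-day-old lay under the array's 20th percentile, and the probe set passed the filter only through 3 of the 4 arrays labelled 3-day-old. When values under that percentile were raised to it, a setting chosen after the data were seen, the difference was -0.31 and did not pass (adjusted p = 0.18). The mean of the arrays labelled 3-day-old, 4.57 on the log2 scale, is itself under the mean of those percentiles, 4.81, so no lower bound can be put on a fold change. The call was lost on leaving out any 1 of 6 arrays (largest adjusted p 0.0759), the exceptions being replicate 4 labelled 7-day-old and replicate 3 labelled 3-day-old. The S1 probe set averaged 71.8 ± 19.5 in arrays labelled 7-day-old and 56.9 ± 9.58 in those labelled 3-day-old (SD, n = 4 each). Its log2 difference was 0.31 with a 95% interval of -0.20 to 0.83 (limma, adjusted p = 0.409). For the S1 signal this interval leaves out a fall as large as the -3.13 listed for A1, a size itself without a firm base. It does not settle what the A1 probe set reads.

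TRAF6 also had an A1 and an S1 probe set, and neither was called. The brighter, Ssc.23491.1.S1_at, had 55.6, 54.3, 94.3 and 61.7 in arrays labelled 7-day-old, against 37.6, 61.2, 65.7 and 31.5 in arrays labelled 3-day-old. The labels overlapped, with 7-day-old replicate 3 the highest of the 8. The means were 66.5 ± 18.8 in arrays labelled 7-day-old and 49.0 ± 17.0 in those labelled 3-day-old (SD, n = 4 each). The log2 difference was 0.47, with a 95% interval of -0.21 to 1.15 (limma, adjusted p = 0.342). The other probe set, Ssc.23491.1.A1_at, was under the 20th percentile in all 8 arrays, between 0.273 and 13.9 in arrays labelled 7-day-old and between 1.04 and 15 in arrays labelled 3-day-old, and was not tested.

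The A1 and S1 probe sets of TRAF5, and likewise those of TRAF6, share 1 cluster number and differ in their name only by this letter, whose meaning could not be looked up here. The array holds 379 such pairs. In 83 of them (21.9%) the S1 probe set reached the 20th percentile in all 8 arrays and the A1 probe set did not, as for TRAF5 and TRAF6, and in 33 it was the reverse. Of the A1 probe sets of these pairs 4 were called, that of TRAF5 among them, and of the S1 probe sets 19 were, with both called in 2 pairs. Over all tested probe sets 10.7% were called. In 224 pairs neither probe set reached the 20th percentile in all 8 arrays, and the number tested is not given here. The counts are thus not read as a difference between A1 and S1 probe sets.

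Of the 6 member probe sets 4 were tested, and NFKBIA and the A1 probe set of TRAF5 were called, both lower in arrays labelled 7-day-old. The TRAF5 probe set entered the test only through the arrays labelled 3-day-old, where it is high, and loses its call with low values raised to the 20th percentile, so the count of 2 is not read against the share of all probe sets. Over all tested probe sets 10.7% were called, 5.47% as lower and 5.21% as higher. The labels did not overlap for either called member probe set. Both were picked as called, so this is not read against the share of all tested probe sets without overlap. That share was 21.2% (10.3% with the 7-day-old label lower). With 1 probe set per gene, the one with the highest mean, NFKBIA was the only called gene of the 3 members tested, where 12.2% of 6545 genes were called, 7.15% as lower and 5.03% as higher.

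Other genes of the pathway were grouped into receptors, adaptors and kinases, negative regulators and target genes. Many had no probe set: one was found for 9 of 17 listed receptors, 11 of 35 adaptors and kinases, and 10 of 20 negative regulators. CHUK, IKBKB, TRAF2 and RIPK1 are among those without. What follows covers only the measured part of each group. All receptors measured had lower means in arrays labelled 7-day-old, and so had most target genes, whereas adaptors, kinases and negative regulators had medians near 0. Of 9 receptors and co-receptors 6 were lower and 0 higher at an adjusted p under 0.05 (limma), with a median log2 difference of -0.82, where the median over all genes tested was -0.02, 7.15% of these were lower, 5.03% higher, and 3494 of 6545 had a difference below 0. The 3 receptors not called were dim: TLR2 (limma, adjusted p = 0.23), CD14 (0.127) and CD27 (0.603) reached the 20th percentile in 6, 7 and 3 arrays. Their direction carries little weight. Of 27 target genes 8 were lower and 0 higher, with a median of -0.60, and 4 more stayed under the array's 20th percentile throughout and were not tested. Of 11 adaptors and kinases 2 were lower and 0 higher, with a median of 0.05, and of 10 negative regulators 1 was lower and 0 higher, with a median of 0.00. The share called was 18.2% for adaptors and kinases and 10.0% for negative regulators, near the 12.2% of all genes, and 66.7% for receptors and 29.6% for targets. No p-value was computed for these lists, whose genes were chosen with results of these data known. TLR4, CXCL2, CXCL8, CCL2, IL1A, LIF, ICAM1 and PTGS2 are also among the genes that the study selected on these samples, so that their common direction is not independent evidence.

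**Figure D2:**
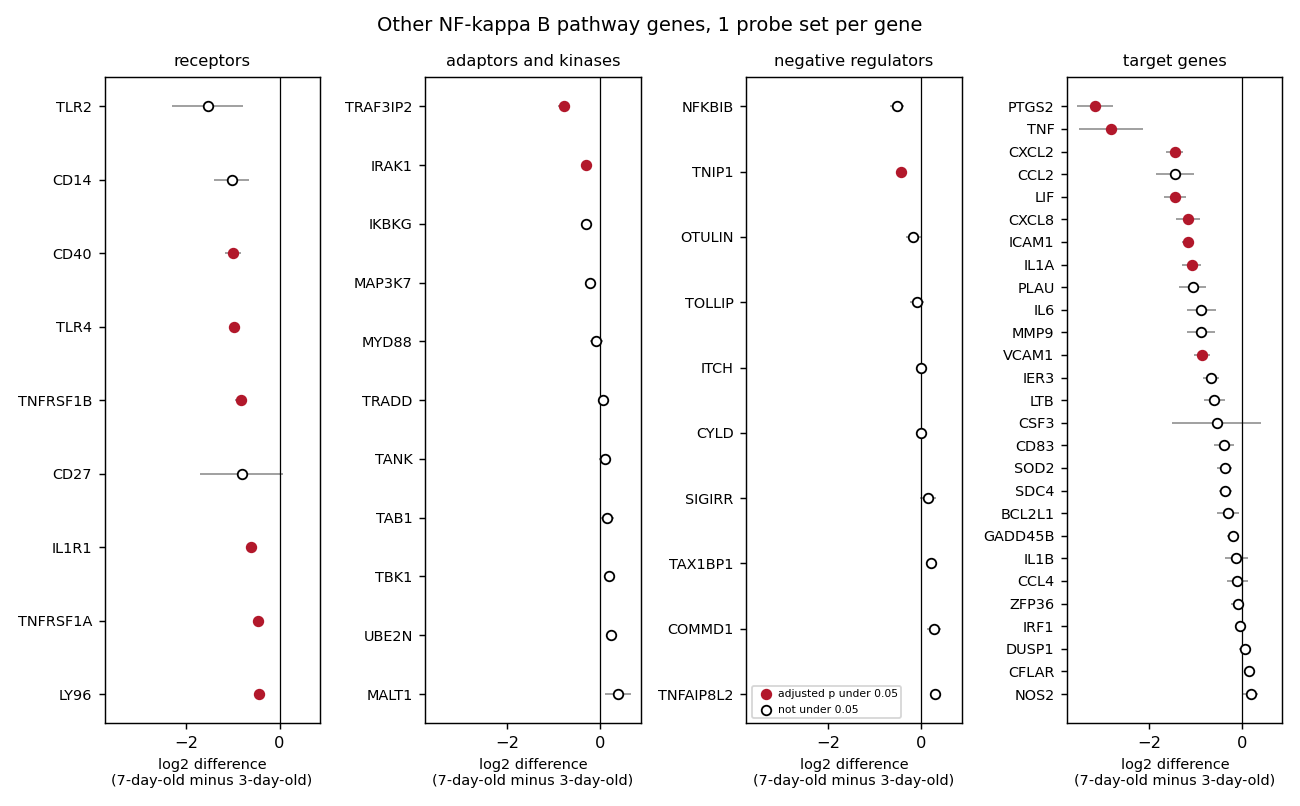
Log2 difference (horizontal axis, 7-day-old minus 3-day-old label) of the other NF-kappa B pathway genes tested, 1 probe set per gene, in 4 groups. Points are differences with their standard errors as lines, filled where the limma adjusted p was under 0.05. All 9 receptors lie left of 0, 3 of them not filled, and the adaptors, kinases and negative regulators lie on both sides of it.

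Among the receptors, TLR4, the lipopolysaccharide receptor, had 229, 232, 231 and 235 in arrays labelled 7-day-old, against 435, 451, 514 and 422 in those labelled 3-day-old. The labels lay far apart, and the arrays labelled 7-day-old were almost equal. The log2 difference was -0.97 (standard error 0.0872, limma, adjusted p = 0.00385). LY96, the co-receptor MD-2 that binds lipopolysaccharide with TLR4, had a log2 difference of -0.43 (adjusted p = 0.0269). TNFRSF1B and TNFRSF1A, the 2 receptors of tumour necrosis factor, had -0.82 (0.0099) and -0.46 (0.0271), and the interleukin-1 receptor IL1R1 had -0.61 (0.0204). CD40, a receptor of the same family as the tumour necrosis factor receptors that signals through TRAF proteins, had -1.0 (0.0155). These 6 probe sets did not overlap between labels. They were named because they were called, so this is not read against the share of all tested probe sets, 10.3% in this direction. The calls of LY96 and TNFRSF1A were lost on leaving out any 1 of 6 arrays for LY96 and any 1 of 7 for TNFRSF1A. The limma adjusted p was then up to 0.0732 and 0.0676. With 1 array left out their log2 differences changed little, at -0.47 to -0.38 for LY96 and -0.50 to -0.40 for TNFRSF1A. The call of IL1R1 was lost without replicate 1 (0.0589) or 4 (0.0505) labelled 7-day-old, or replicate 3 labelled 3-day-old (0.0595). Without either of these arrays labelled 7-day-old, 3 receptors were called in place of 6. Other probe sets of these genes differed: of 4 more for TLR4 1 was called, with log2 differences between -1.34 and 0.12, and a second, dimmer probe set of IL1R1 had 0.01 (0.993). The 2 other probe sets of CD40 had -0.81 (limma, adjusted p = 0.0259) and -0.41 (0.107).

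Among adaptors and kinases, TRAF3IP2, an adaptor of interleukin-17 receptor signalling that binds TRAF6, had 414, 451, 351 and 507 in arrays labelled 7-day-old, against 680, 796, 755 and 716 in those labelled 3-day-old. These ranges did not overlap, with a log2 difference of -0.78 (limma, adjusted p = 0.0125). IRAK1, a kinase of interleukin-1 and Toll-like receptor signalling, had -0.31 (0.0369), a call lost on leaving out any 1 of the 8 arrays (largest adjusted p 0.0957). The adaptors MYD88 and TRADD, at -0.09 (0.721) and 0.05 (0.765), did not pass. Nor did the kinase MAP3K7, at -0.23 (0.206), or IKBKG, the regulatory subunit of the I kappa B kinase complex, at -0.30 (0.0576). NFKBIB, the gene of I kappa B beta and the only other classical inhibitor measured, had 646, 709, 826 and 676 in arrays labelled 7-day-old, against 885, 1253, 1121 and 869 in those labelled 3-day-old. The labels did not overlap, yet its log2 difference of -0.52 did not pass (limma, adjusted p = 0.0671). TNIP1, a partner of the deubiquitinating protein A20, had -0.43 (limma, adjusted p = 0.0495), a call lost on leaving out any 1 of 7 arrays (largest adjusted p 0.115). The deubiquitinase CYLD had 0.00 (0.988). TNFAIP8L2, a negative regulator of immune signalling, had 0.30 (0.101) in its brighter probe set and -2.40 (0.0433) in a dim one that reached the 20th percentile in 2 arrays.

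Among the target genes, CXCL2, a neutrophil chemokine, had 1374, 1432, 1000 and 1109 in arrays labelled 7-day-old, against 4408, 3074, 2957 and 3022 in those labelled 3-day-old. The labels were well apart, with 3-day-old replicate 1 above the rest of its label. Its log2 difference was -1.45 (limma, adjusted p = 0.0061). The adhesion molecules ICAM1 and VCAM1 had -1.16 (0.00591) and -0.86 (0.0224), the cytokines LIF and IL1A had -1.44 (0.0146) and -1.08 (0.0199), and PTGS2, the inducible prostaglandin synthase, had -3.15 (0.0061). The other called targets, CXCL8 and TNF, were at -1.16 (limma, adjusted p = 0.0306) and -2.80 (0.0422), TNF with 3 of the 4 arrays labelled 7-day-old at 11.8 or less and so under the 20th percentile. The TNF difference was -1.62 with an offset of 16 and -1.24 with low values raised to that percentile, and its call was lost with no filter (0.05259), with quantile normalization (0.05612) and by the test of the study's methods (0.07573), as was that of CXCL8 by the last of these (0.05415). Targets that did not pass included the early response gene IER3 at -0.67 (0.0524), SOD2, the mitochondrial superoxide dismutase, at -0.38 (0.151), and the apoptosis regulator CFLAR at 0.15 (0.301). CCL2 at -1.44 (limma, adjusted p = 0.0598) and PLAU at -1.06 (0.0561) did not pass either. The calls of IL1A, VCAM1, CXCL8 and TNF were lost on leaving out any 1 of 4, 5, 4 and 7 arrays (largest adjusted p 0.0587, 0.0654, 0.0784 and 0.102), and without 3-day-old replicate 2 the count of called targets was 4 in place of 8. It was 5 without replicate 2 labelled 7-day-old, and without replicate 1 or 3 labelled 3-day-old.

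**Figure D3:**
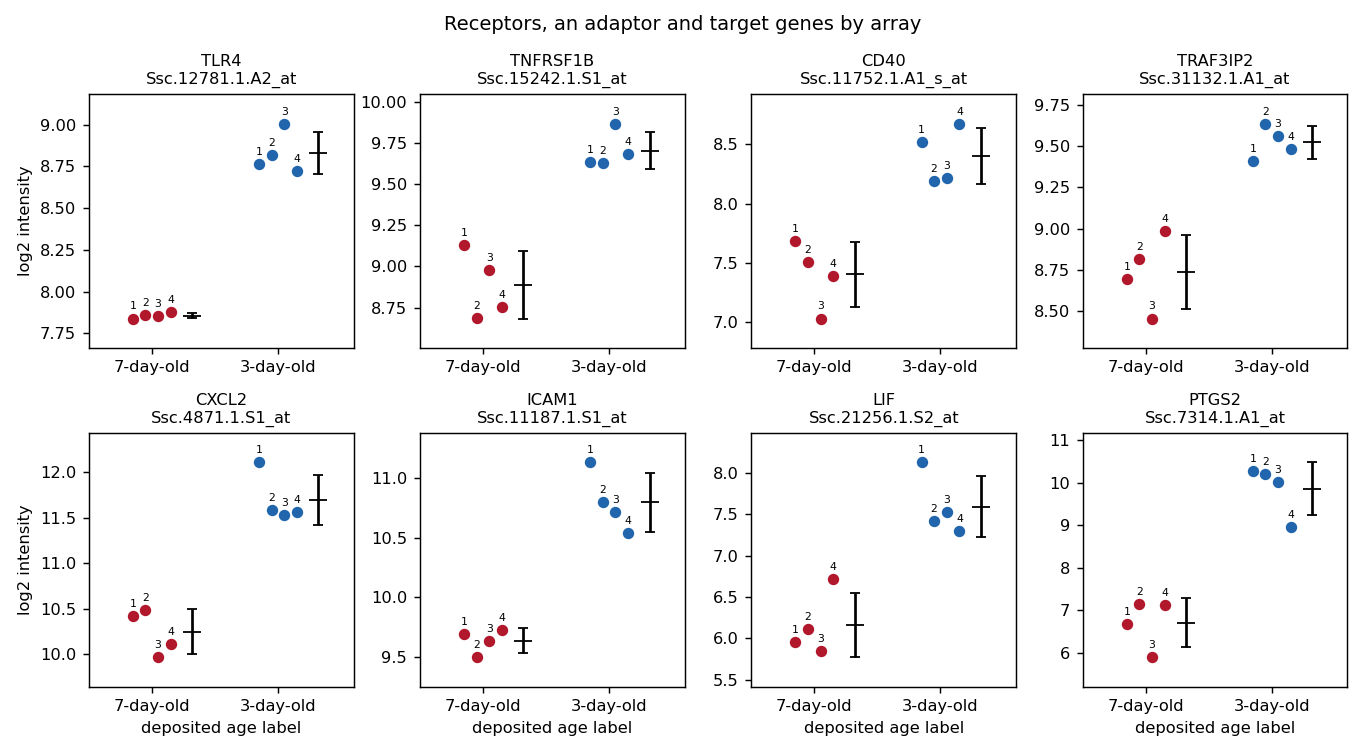
Log2 intensity (vertical axis) of 3 receptors, 1 adaptor and 4 target genes in each array, by deposited age label, numbered by replicate, a bar giving the mean and SD of each label, scales differing between panels. In each of the 8 probe sets the arrays labelled 7-day-old lie under those labelled 3-day-old.

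The order of the arrays within a label was partly shared between NFKBIA and the called target genes. NFKBIA was highest in replicate 1 among the arrays labelled 3-day-old, and so were 6 of the 8 called target genes. It was lowest in replicate 3 among the arrays labelled 7-day-old, and so were 5 of the 8. How often the targets not called, or all genes, have this order was not counted, so it is not shown to be particular to these genes. Of 6542 other genes, those whose log2 values followed NFKBIA most closely over the 8 arrays were CXCL2 (Pearson r = 0.980), PRELID1 (0.970) and EML3 (0.967). After the mean of each label was subtracted the correlations were 0.89, 0.81 and 0.78. For the A1 probe set of TRAF5 they were VPS26B (0.985), MYO10 (0.965) and FAM136A (0.960). These are descriptions over 8 arrays that share the split by label, picked as the highest of many.

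In these bulk samples fewer cells of a type and less RNA per cell cannot be told apart. Markers of some other cell types moved with the label. Of 10 endothelial markers tested, 4 were lower in arrays labelled 7-day-old (PECAM1, CDH5, TIE1 and CLDN5). The summed intensity of the 10 was 733 to 926 in arrays labelled 7-day-old and 1779 to 2279 in those labelled 3-day-old. TIE1 reached the 20th percentile, and so passed the filter, only in arrays labelled 3-day-old, where it is high. PECAM1 and CDH5 are among the genes that the study selected on these samples, and were the brightest of the sum in every array. The count of 4 is thus not read against the share of all genes that were lower, 7.15%. Nor is the sum, which rests largely on these genes, read as independent evidence. Differences below 0 were seen in 9 of the 10 markers, VWF having 0.27 (limma, adjusted p = 0.757), and 6 were not called. Of 9 fibroblast and stellate markers 4 were lower (COL1A2, DCN, PDGFRB and THY1), DCN being also among the genes the study selected. This count is likewise not read against the 7.15% of all genes that were lower. COL3A1 had a log2 difference of 0.11 (limma, adjusted p = 0.896), and LUM (0.163) and POSTN (0.339) were not called. The fibroblast and stellate list summed to 26559 to 31218 in arrays labelled 7-day-old and 36468 to 51132 in those labelled 3-day-old. The brightest genes of that sum, VIM and FN1, were not called (limma, adjusted p = 0.0637 and 0.103). The leukocyte markers overlapped in their sum, at 581 to 787 in arrays labelled 7-day-old and 568 to 1119 in those labelled 3-day-old. ITGB2 was the brightest gene of this sum in every array. Differences below 0 were seen in 9 of 14 markers, with a median log2 difference of -0.40, where 3494 of 6545 genes were below 0. Of 14 leukocyte markers 1 was called, LY86, a share of 7.14% where 7.15% of all genes were lower, and it reached the 20th percentile only in 2 arrays labelled 3-day-old. The leukocyte common antigen PTPRC and the markers CD4, CD79B and CD86 reached that percentile in 1 array each, ITGAM and LY86 in 2, CD3E and CD3D in 5, CD8A and CD14 in 7, and CD163, ITGB2, SPI1 and CD74 in all 8. ITGB2, the integrin beta chain of leukocytes, had a log2 difference of 0.54 (limma, adjusted p = 0.0511). Of 7 duct markers 1 was lower and of 4 acinar markers 1 was, lists too short to set against the share of all genes. Of 10 endocrine markers 3 were higher (PCSK1, PCSK2 and NEUROD1), where 5.03% of all genes were. PCSK2 and NEUROD1 are also among the genes that the study selected on these samples. The part of these cells in the differences of NFKBIA, the receptors and the target genes was not tested.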

How the data were processed

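Islet RNA of 4 pigs of each age was amplified, labelled and hybridised by the Affymetrix protocol, 1 array per pig, with a further round of amplification where material was low. Linear intensities of 24123 probe sets were deposited, which the authors had scaled so that the mean after trimming both ends is the same in every array. How probes were summarised is not given in the sources used. The methods' division of each probe set by its median was not applied in this table.

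Intensities under 1 were set to 1 and log2 was taken. Control probe sets were left out, and a probe set was tested when it reached its array's 20th percentile in at least 1 array (21571 of 23999). Symbols came from the platform annotation: 10069 probe sets had 1, 198 several and 13732 none. All 119 listed genes with a probe set carried the symbol that RefSeq (Sscrofa11.1) gives for their gene ID. Labels were compared by limma 3.58.1 in R 4.3.3 (lmFit, eBayes, two-sided, Benjamini-Hochberg adjustment, threshold 0.05, no covariates) and, for single members, by an exact permutation test. A gene was represented by its probe set with the highest mean. Python 3.11.15 was used for the rest, and the fit was tested on simulated data. Pig numbers gave no sign of pairing, so no block was used.

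The members and lists were chosen with earlier results of these data known. Named were all member probe sets, up to 6 called genes per pathway list, and the 3 genes most like each called member. CXCL8, TNF and the genes named as not called were added after their values were seen. The number of arrays limits the precision. No sequences or genome positions came with the data, so none are given.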

Additional observations from a re-analysis of the deposited data

Results flagged for a closer look

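Among 46 groups of 4 arrays, from 23 probe sets of members and named pathway genes, 3 had 1 array far from the other 3 on the log2 scale, and chance gives about 1 in 20. In arrays labelled 3-day-old, replicate 1 had a CXCL2 intensity of 4408 where the other 3 had 2957 to 3074, and a TNIP1 intensity of 667 where the other 3 had 560 to 576. IRAK1 was at 893 in replicate 4 of the arrays labelled 7-day-old and at 915 to 917 in the rest of that label. None of the member probe sets stood out in this way.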

How the results depend on the processing

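No difference of a tested member or called pathway gene changed sign under any alternative run. The count of all called probe sets, 2305, was 3491 with an intensity trend and robust variances, and 1008 to 1854 when 1 array was left out. NFKBIA kept its call under the alternatives run, other than the pig number as a block and the 2 arrays left out that the report names, and its difference ranged from -0.75 to -0.59 when 1 array was left out. The A1 probe set of TRAF5 had -3.13 but did not pass by the methods' test (adjusted p = 0.0553), had -0.31 with low values raised to the 20th percentile (a setting added after the data were seen), -1.16 with an offset of 16 (still called), and -3.74 to -2.81 when 1 array was left out. It was not tested with the stricter filter. The count of called member probe sets, 2, was thus 1 with the stricter filter, by the methods' test and with low values raised, and 0 to 2 when 1 array was left out. When 1 array was left out, 3 to 6 receptors, 1 adaptor or kinase, 0 to 1 negative regulator and 4 to 9 target genes were called. The 1 called negative regulator became 0 with no filter or by the methods' test, 3 with the stricter filter, and 2 with the intensity trend, with array quality weights or with low values raised. The 2 called adaptors and kinases became 1 with the mean of all probe sets of a gene, and 3 with the stricter filter, by the methods' test or with array quality weights. With the pig number as a replicate block 0 probe sets passed limma's test, although 5265 had an unadjusted p under 0.05. With that block the called members, receptors, adaptors, negative regulators and targets each numbered 0, NFKBIA at -0.68 (adjusted p = 0.0599) and the A1 probe set of TRAF5 at -3.13 (0.0627). The methods' test, run with no block, called 2125. Residuals of arrays with equal numbers correlated between -0.0133 and 0.00493, which gave no sign that the numbers pair the pigs. So few values cannot exclude a pairing. Where causes are not part of an alternative's construction, the cause was not tested.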
